A study of Mus musculus with 12 samples.

Results

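The skeletal myosin light chains, their muscle kinase Mylk2 and the smoothelin-like gene Smtnl1 were followed across soleus and tibialis anterior (TA) muscle of H6pd knockout (KO) and wild type (WT) mice. The members were chosen by gene name, with earlier results of these data known, so the choice was not blind to the signals. Every probe set that the array's probe table assigned to a single symbol among Myl1, Myl2, Myl3, Myl4, Myl6b, Mylpf, Mylk2 and Smtnl1 was taken. This gave 8 of the 18193 genes that had such a probe set, read by 11 of the 45101 probe sets on the array, and all 11 were among the 22648 probe sets tested. Myl3 had 3 probe sets, Myl4 had 2 and each of the other genes had 1. Counts of members below are counts of these 11 probe sets, so Myl3 counts 3 times.

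The H6pd product, hexose-6-phosphate dehydrogenase, makes NADPH inside the endoplasmic reticulum, and soleus and TA differ in fibre type and metabolism. One-colour Affymetrix arrays were hybridised with muscle RNA of 4-week-old mice, 3 from each muscle of each genotype, which makes 4 groups. The labels call the arrays of a group biological replicates, so the tests measure the spread between these arrays. The labels name neither the strain nor the sex of the mice, nor the part of H6pd that was deleted, and the small number of arrays limits the precision of every value.

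A myosin motor of striated muscle carries an essential and a regulatory light chain on the lever arm of each heavy chain. Fast fibres use Myl1 as the essential and Mylpf as the regulatory chain, while slow fibres and the heart ventricle use Myl3 and Myl2, and Myl4 is the essential chain of embryonic muscle and the atrium. Mylk2, a calcium- and calmodulin-dependent kinase, phosphorylates the regulatory chain and so raises the force of a fast fibre after repeated stimulation. Smtnl1, also called CHASM, is a substrate of cyclic nucleotide-dependent protein kinases in smooth and skeletal muscle and is tied to the activity of the myosin phosphatase.

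The promoter letters of a slow chain, a fast chain and Smtnl1 are shown as 1 gene that separates the muscles by far (Myl3), 1 that lies near the top of the table in both (Mylpf) and the 1 member that passed between genotypes (Smtnl1). The sequences are from RefSeq on build GRCm38.p6 and cover the 250 bases before a listed transcript start, read 5′ to 3′ on the gene's strand. Capitals mark a CArG box, the core of serum response factor sites, in Myl3 and the E-box CAGCTG, a core bound by myogenic factors, in Mylpf. The Smtnl1 sequence held neither and has no capitals.
Myl3, chr9:110763428-110763677, plus strand: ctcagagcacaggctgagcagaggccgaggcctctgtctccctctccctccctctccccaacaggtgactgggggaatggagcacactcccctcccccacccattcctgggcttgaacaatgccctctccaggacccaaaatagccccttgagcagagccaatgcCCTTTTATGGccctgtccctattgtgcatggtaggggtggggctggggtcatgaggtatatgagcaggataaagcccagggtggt
Mylpf, chr7:127211358-127211607, plus strand: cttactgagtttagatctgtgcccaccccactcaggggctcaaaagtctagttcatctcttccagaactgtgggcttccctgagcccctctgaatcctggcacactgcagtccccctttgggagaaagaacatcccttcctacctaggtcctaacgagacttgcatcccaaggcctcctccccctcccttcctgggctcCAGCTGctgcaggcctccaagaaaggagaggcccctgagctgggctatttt
Smtnl1, chr2:84822653-84822902, minus strand: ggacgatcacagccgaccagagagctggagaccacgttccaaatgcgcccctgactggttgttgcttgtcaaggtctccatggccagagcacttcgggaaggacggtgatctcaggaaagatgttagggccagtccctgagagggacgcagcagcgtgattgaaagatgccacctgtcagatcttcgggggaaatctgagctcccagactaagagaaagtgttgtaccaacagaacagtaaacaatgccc

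The Myl3 window ends where the annotated gene begins, at chr9:110763678-110769802. The Mylpf and Smtnl1 windows lie within the annotated spans of these genes, chr7:127208848-127214288 and chr2:84811173-84826847, since each belongs to a start inside the span. Searched on both strands, the CArG box lay at -85 to -76 from the start of Myl3 and was present in 1.47% of 32851 promoter windows of this length. CAGCTG lay at -51 to -46 in Mylpf and was present in 13.0% of the windows. It also lay at -224 to -219 in the Myl1 window, chr1:66945057-66945306 on the minus strand, and at -130 to -125 in 1 of the 2 Myl2 windows, chr5:122092939-122093188 on the plus strand. The MEF2 site, found in 2.92% of the windows, was in none of the 8 windows of the 7 member genes that had one. The shorter pattern CANNTG, which includes CAGCTG, was in 66.2% of all windows. These are matches of letters and say nothing of binding.

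H6pd itself had 1 probe set, whose log2 signal was 4.19 to 6.10 in KO soleus against 5.57 to 7.11 in WT soleus, and 6.49 to 7.49 in KO TA against 6.26 to 7.92 in WT TA. The groups overlapped in both muscles, and whether this probe set lies in the deleted part is not known, so this signal gave no check of the genotype labels. The muscle labels were checked with fibre genes outside the members. The summed signal of 10 slow fibre genes was log2 17.82 to 18.14 in KO soleus and 17.92 to 18.09 in WT soleus, against 12.53 to 12.94 in KO TA and 11.73 to 12.61 in WT TA. Of 7 cardiac markers, 5 had group means under log2 4, near the background of the table, in every group. These included Nppa, Nppb and Tnni3. The other two were Myh6, a heavy chain of the heart, with means of 8.72 in KO soleus, 8.42 in WT soleus, 4.42 in KO TA and 3.86 in WT TA, and Tnnt2, with 8.83, 8.39, 6.99 and 7.16 in the same order of groups. Arrays numbered 3 stood apart from numbers 1 and 2 in several members, as given below, and every group holds 1 of them.

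**Figure D1:**
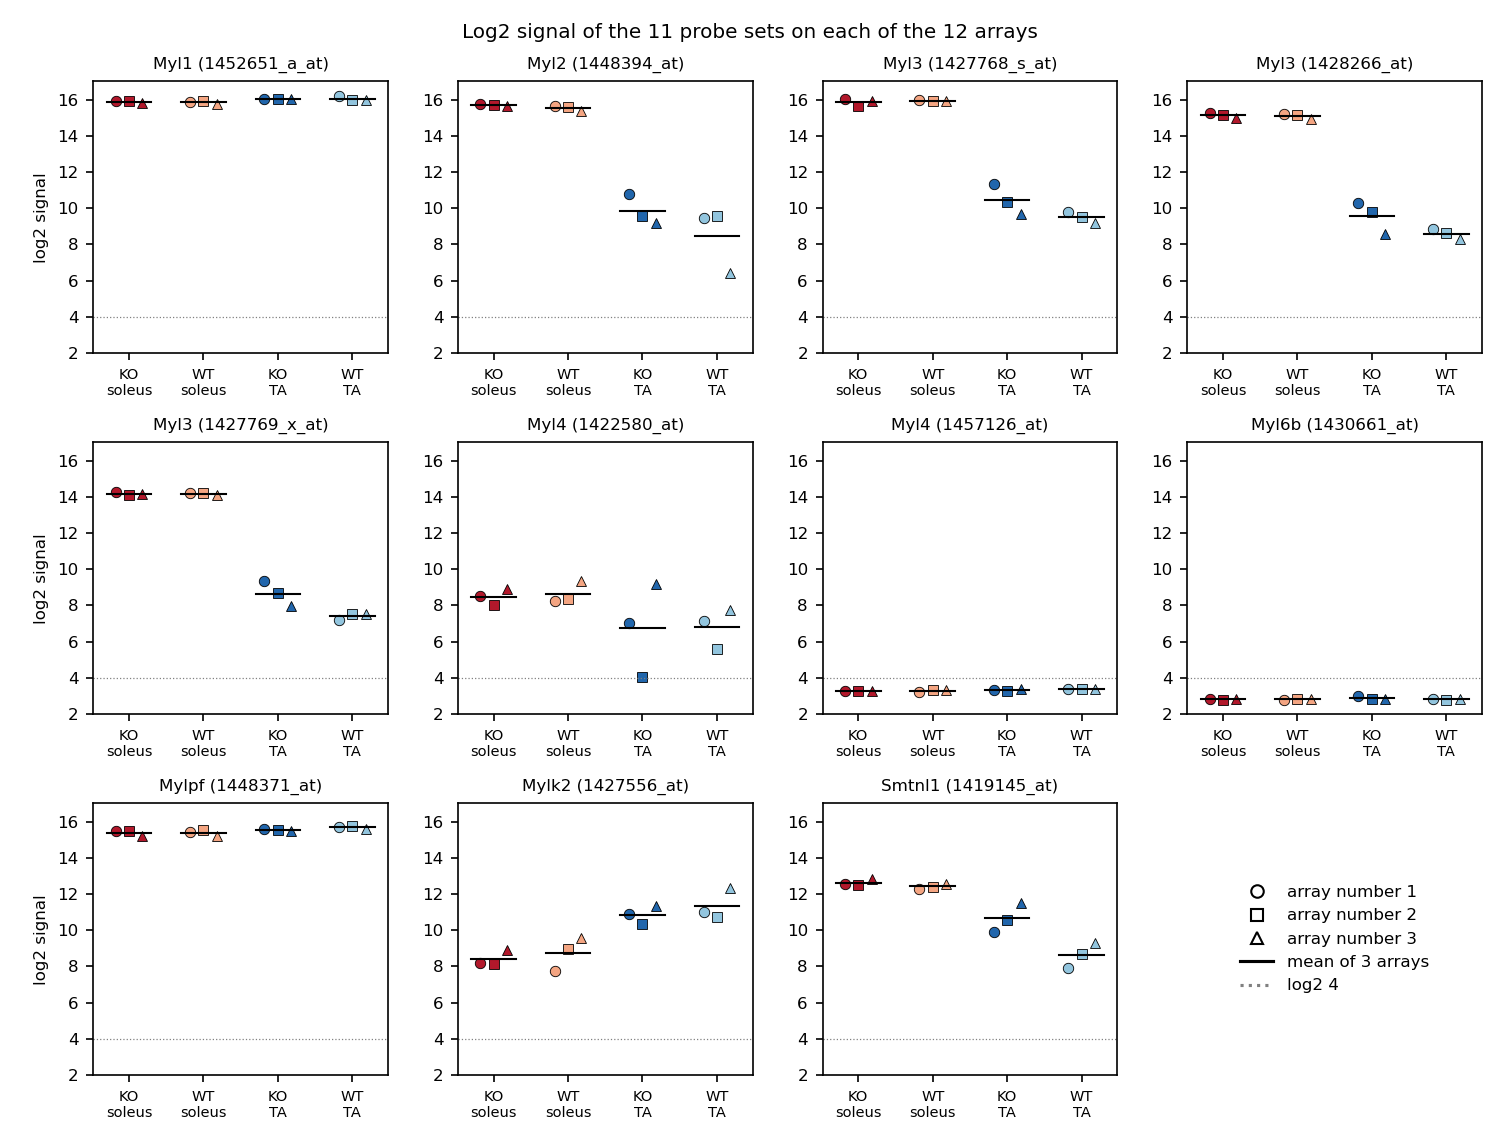
Normalized log2 signal (y axis) of the 11 probe sets on the 12 arrays, by group, with circles, squares and triangles for array numbers 1, 2 and 3, a bar at the mean of 3 arrays and a dotted line at log2 4. Myl2 and Myl3 lie far higher in soleus than in TA, Mylk2 lies lower in soleus, and Smtnl1 in KO TA lies between WT TA and soleus.

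Levels on these arrays cannot be ranked between genes, because each probe set binds with its own strength, so each probe set is read across the groups. The fast essential chain Myl1 was near the top of the table on every array, between ranks 2 and 13 of the 45101 probe sets. Its log2 signal was 15.91, 15.94 and 15.82 in KO soleus, 15.88, 15.94 and 15.75 in WT soleus, 16.05 on all 3 arrays of KO TA, and 16.21, 15.98 and 15.98 in WT TA. The equal KO TA values arose because quantile scaling gives probe sets of equal rank the same value. As deposited, these 3 arrays lay between 16.00 and 16.10. The Myl1 probe set is named for a gene with a long and a short product, MLC1f and MLC3f, which its signal does not tell apart.

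The fast regulatory chain Mylpf was also close to the ceiling, at ranks 14 to 44. Its log2 signal was 15.50, 15.47 and 15.22 in KO soleus, 15.42, 15.51 and 15.21 in WT soleus, 15.57, 15.51 and 15.47 in KO TA, and 15.69, 15.74 and 15.60 in WT TA. All 3 KO TA arrays were below all 3 WT TA arrays, by a narrow margin.

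Myl2, the slow regulatory chain, had a log2 signal of 15.74, 15.71 and 15.65 in KO soleus and 15.67, 15.60 and 15.37 in WT soleus. In TA it was 10.77, 9.55 and 9.19 in KO, against 9.46, 9.56 and 6.44 in WT. WT TA array 3 was far below the other TA arrays, and the other WT TA values lay within the KO TA range.

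Myl3, the slow essential chain, was read by 3 probe sets. On the brightest, 1427768_s_at, the log2 signal was 16.05, 15.67 and 15.94 in KO soleus, 15.97, 15.91 and 15.91 in WT soleus, 11.32, 10.36 and 9.69 in KO TA, and 9.82, 9.52 and 9.19 in WT TA. The highest WT TA array exceeded the lowest KO TA array. On 1427769_x_at it was 14.25, 14.07 and 14.15 in KO soleus, 14.24, 14.20 and 14.10 in WT soleus, 9.35, 8.67 and 7.94 in KO TA, and 7.21, 7.52 and 7.51 in WT TA. Here every KO TA array was above every WT TA array. On 1428266_at the TA values were 10.27, 9.81 and 8.56 in KO against 8.87, 8.63 and 8.27 in WT, which overlapped, and soleus lay between 14.92 and 15.27. The suffixes of the other 2 probe sets mark probes that can bind related transcripts.

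Myl4, the embryonic and atrial chain, was at a middling level on 1422580_at, at 8.52, 8.05 and 8.90 in KO soleus, 8.25, 8.36 and 9.34 in WT soleus, 7.01, 4.07 and 9.17 in KO TA, and 7.13, 5.60 and 7.73 in WT TA. The KO TA arrays spanned the whole WT TA range and more. Its other probe set, 1457126_at, lay between 3.20 and 3.39, and Myl6b, an essential chain known from slow muscle and from non-muscle cells, lay between 2.77 and 2.97. Both are near background on all 12 arrays, so no difference is given for them, and 9 of the 11 probe sets remain.

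Mylk2, the kinase, had a log2 signal of 8.16, 8.11 and 8.93 in KO soleus, 7.72, 8.95 and 9.56 in WT soleus, 10.92, 10.33 and 11.34 in KO TA, and 10.99, 10.74 and 12.35 in WT TA. Every TA array was above every soleus array. Smtnl1 was at 12.54, 12.52 and 12.82 in KO soleus, 12.29, 12.41 and 12.54 in WT soleus, 9.92, 10.56 and 11.48 in KO TA, and 7.93, 8.67 and 9.30 in WT TA. Its 4 groups lined up from KO and WT soleus, which overlapped, to KO TA and then WT TA, with no overlap between those last 2.

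In some members the number 3 array differed from the others in the same direction in all groups. The number 3 array was above the mean of numbers 1 and 2 in each of the 4 groups for Mylk2, by 0.71 to 1.48, for Smtnl1, by 0.19 to 1.24, and for Myl4 on 1422580_at, by 0.62 to 3.63. For Myl2 it was below that mean in each group, by a log2 difference of -3.07 to -0.08, and for Mylpf by -0.27 to -0.07. For Myl3 on 1428266_at it was also below that mean in each group, by -1.48 to -0.23. The part of array number in the comparisons was not tested beyond the fits with it as a block and without the arrays numbered 3.

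The comparison of KO with WT TA asks what loss of H6pd goes with in a fast muscle. In KO TA, Smtnl1 rose 4.06-fold, to a mean log2 signal of 10.65 ± 0.78 in KO TA against 8.63 ± 0.69 in WT TA (SD, n = 3 each). The log2 difference was 2.02 (SE 0.40, 95% interval 1.13 to 2.91, limma adjusted p = 0.0352). The KO minus WT differences between arrays of equal number were 1.997, 1.888 and 2.178, so all 3 were close to the mean. Smtnl1 was the 1 member of 11 that passed the test, where 2.02% of all probe sets tested passed (limma). As bulk RNA was measured, a change in the share of cells of a type and a change in RNA per cell cannot be told apart.

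The call for Smtnl1 held in 12 of 24 alternative settings, with adjusted p (limma) from 0.0105 to 0.187 and differences from 1.61 to 2.39. With array number as a block the adjusted p was 0.0105, and fitted on the TA arrays alone it was 0.187. It was 0.110 without KO TA replicate 2, 0.0880 without KO TA replicate 3, 0.0991 without WT TA replicate 1 and 0.0868 without WT TA replicate 2. It was 0.0522 to 0.0605 when KO soleus replicate 1 or 2 or any WT soleus array was left out of the shared estimate of the spread, 0.0700 without the arrays numbered 3, and 0.0597 with no filter on low signal.

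The slow chains had higher means in KO TA without passing. For Myl3 the log2 differences were 0.95 (SE 0.34, limma adjusted p = 0.203), 0.96 (SE 0.36, adjusted p = 0.228) and 1.24 (SE 0.28, adjusted p = 0.0546) on 1427768_s_at, 1428266_at and 1427769_x_at. With array number as a block the adjusted p of 1427769_x_at was 0.0413, and 2 of 11 members passed, against 5.44% of all probe sets. This probe set passed in 7 of 23 alternatives, its adjusted p being 0.0183 without KO TA replicate 3 and 0.153 without WT TA replicate 1. Without KO TA replicate 1 the difference on 1427768_s_at was 0.51. That on 1428266_at passed without KO TA replicate 3 (1.45, limma adjusted p = 0.0276) and was 0.60 without KO TA replicate 1 (adjusted p = 0.468). By array number the differences were 1.502, 0.839 and 0.499 on the brightest probe set and 2.14, 1.15 and 0.43 on 1427769_x_at, positive in each of the 3 pairs but unequal. Myl2 differed by 1.35 (SE 0.73, 95% interval -0.27 to 2.97, limma adjusted p = 0.430) and by 0.33 without WT TA replicate 3. By array number its differences were 1.32, -0.01 and 2.75.

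Slow fibre genes outside the members were set beside Myl2 and Myl3. The log2 of the summed signal of the 10 slow genes was 12.94, 12.53 and 12.62 in KO TA against 12.47, 12.61 and 11.73 in WT TA, which overlapped. The mean of their log2 signals, in which each gene counts equally, was 8.28, 7.95 and 8.62 in KO TA against 7.59, 7.83 and 6.43 in WT TA, with every KO TA array above every WT TA array. Of the 10 genes 9 had higher means in KO TA and 0 passed (limma). In 4 of them, Tnni1, Tnnc1, Atp2a2 and Pln, KO and WT TA did not overlap, as was true of Smtnl1 and of 21.7% of all probe sets. WT TA array 3 was the lowest on both scales, as for Myl2. On that array Myh7, the slow heavy chain, was at 2.67, near background, and the slow troponins Tnnt1 and Tnni1 were at 5.56 and 4.86, below all other TA arrays. The part of slow fibre content in the differences of Myl2, Myl3 and Smtnl1 was not tested.

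**Figure D2:**
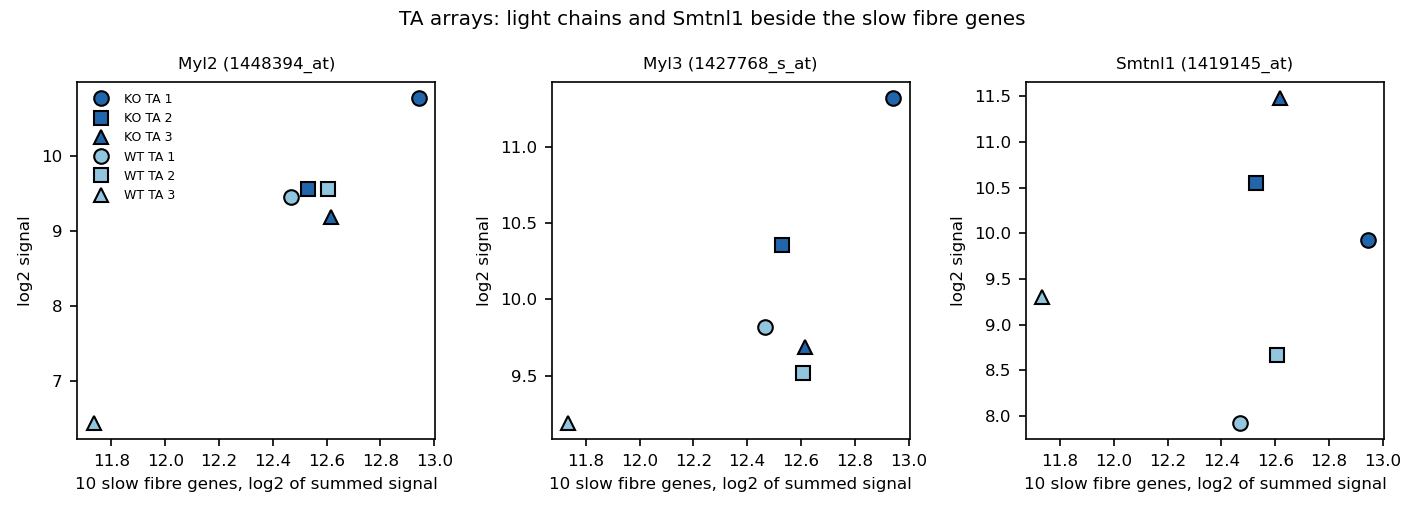
Log2 signal of Myl2, Myl3 and Smtnl1 (y axes, each with its own range) against the log2 of the summed signal of 10 slow fibre genes (x axis) on the 3 KO TA arrays (dark) and the 3 WT TA arrays (light), with array number shown by the symbol. WT TA array 3 is lowest on the x axis at 11.73 and lowest for Myl2 at 6.44, and for Smtnl1 the 3 KO arrays lie above the 3 WT arrays.

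The fast chains and the kinase did not pass in KO TA. The log2 difference of Mylk2 was -0.49 (SE 0.54, 95% interval -1.69 to 0.70, limma adjusted p = 0.743; -0.81 to -0.00065 without single arrays, the smallest without WT TA replicate 3), that of Mylpf was -0.16 (SE 0.10, 95% interval -0.38 to 0.07, adjusted p = 0.524) and that of Myl1 was -0.01 (SE 0.08, 95% interval -0.19 to 0.17, adjusted p = 0.985). For Myl4 the interval was wide, -2.45 to 2.31 around -0.07. The summed signal of 10 fast fibre genes was log2 18.75 to 18.91 in KO TA against 18.97 to 19.03 in WT TA. Of these 10 genes 8 had lower means in KO TA and 0 passed (limma). KO and WT TA did not overlap in 3 of the 10, Casq1, Actn3 and Mybpc2. KO and WT TA did not overlap in 3 of 11 members, Smtnl1 and 1427769_x_at of Myl3 being higher in KO and Mylpf lower, against 21.7% of all probe sets. The median log2 difference of the 11 members was 0.05, the value of a probe set near background, against -0.0043 over all probe sets tested. Over the 9 member probe sets above background, of which 3 read Myl3, it was 0.95. That is the value of Myl3 on 1427768_s_at, which did not pass, and it depends on Myl3 being counted 3 times. Of the 11 members, 6 had higher and 5 had lower means in KO TA.

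The comparison of KO with WT soleus asks the same of a slower muscle. There 0 of 11 members passed, where 0.0221% of all probe sets, 5 in number, passed (limma), and 0 members were under an unadjusted p of 0.05, as against 7.76% of all. Smtnl1 averaged 12.63 ± 0.17 in KO soleus and 12.42 ± 0.13 in WT soleus (SD, n = 3 each), a log2 difference of 0.21 (SE 0.40, 95% interval -0.68 to 1.10). Myl2 differed by 0.15 (95% interval -1.47 to 1.77), and the 3 probe sets of Myl3 by -0.04, 0.03 and -0.02, with intervals between -0.79 and 0.83. Mylk2 differed by -0.34 (95% interval -1.54 to 0.86), Mylpf by 0.02 (-0.21 to 0.24) and Myl1 by 0.03 (-0.15 to 0.21). The intervals of Myl2, Myl4, Mylk2 and Smtnl1 reached beyond 1 log2 unit. The groups overlapped in all 11 members, while 11.2% of all probe sets did not overlap.

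Markers of embryonic or regenerating fibres are given beside Myl4, whose log2 difference in soleus was -0.16 (SE 1.07). The log2 of their summed signal was 11.96 to 12.52 in KO soleus against 10.37 to 10.89 in WT soleus. The embryonic heavy chain Myh3 differed by 2.94 (limma adjusted p = 0.172), while the neonatal heavy chain Myh8 (-0.79) and Myod1 (-0.24) had lower means in KO soleus. The mean of the markers' log2 signals overlapped, at 7.58, 6.85 and 6.88 in KO soleus against 6.96, 6.88 and 6.18 in WT soleus, and 0 of the 6 markers tested, of 7, passed.

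**Figure D3:**
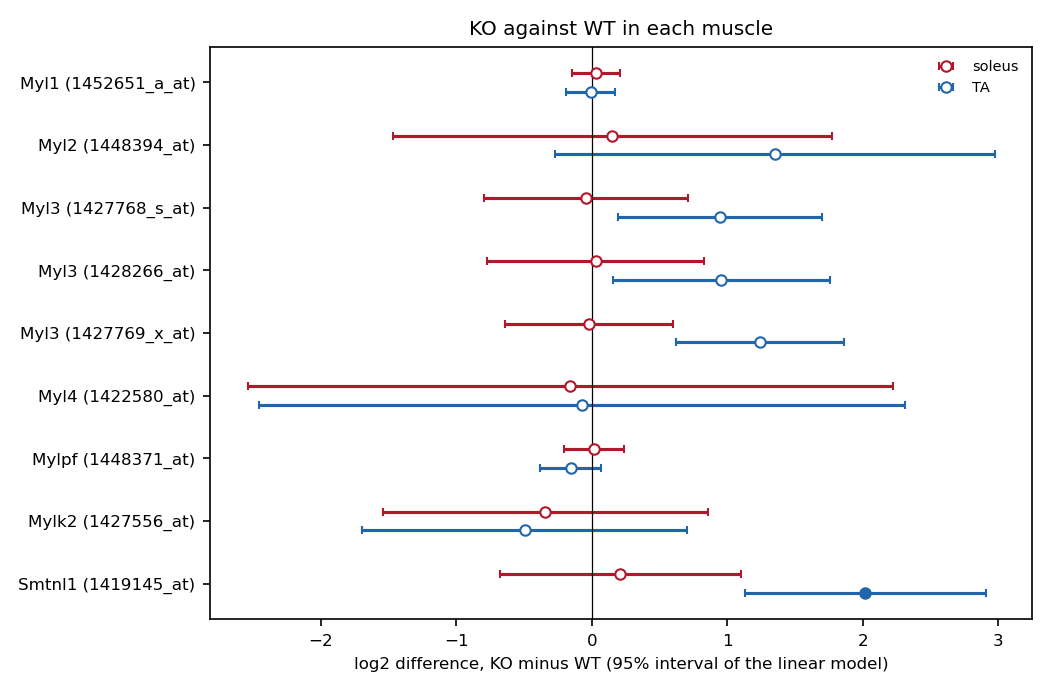
Log2 difference KO minus WT (x axis) of the 9 member probe sets above background in soleus (red) and TA (blue), with the 95% interval of the linear model and a filled point where the adjusted p is under 0.05. The 1 filled point is Smtnl1 in TA at 2.02, and the intervals of the 3 Myl3 probe sets in TA lie above 0 before adjustment.

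Whether the KO effect differed between the muscles was tested directly, as the effect in soleus minus that in TA. For Smtnl1 this was -1.81 (SE 0.56, 95% interval -3.06 to -0.55), with an unadjusted p of 0.00941 in the model and a limma adjusted p of 0.744. For 1427769_x_at of Myl3 it was -1.26 (SE 0.39), also with an adjusted p of 0.744 (limma). Of the 11 members 0 passed, where 0.0353% of all probe sets, 8 in number, passed. At an unadjusted p under 0.05 there were 2 of 11 members, these same probe sets, against 5.27% of all. The Smtnl1 effect was therefore past the test in TA and not in soleus, without a difference between the muscles that passed.

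The comparison of soleus with TA covers the fibre type contrast within each genotype, and shares its arrays with the KO comparisons. In WT, the slow chains separated the muscles most: Myl2 was 133-fold higher in soleus (log2 difference 7.06, SE 0.73, limma adjusted p = 5.18e-04), and Myl3 was 85.6-, 91.2- and 109-fold higher on its 3 probe sets (6.42, 6.51 and 6.77). Without WT TA replicate 3 the Myl2 difference was 6.04. In soleus Myl2 lay at ranks 14 to 33 and Myl3 on 1427768_s_at at ranks 3 to 17, as near the top of the table as Myl1 and Mylpf, so these folds may understate the difference, and saturation was not tested. Smtnl1 was 13.8-fold higher in WT soleus (3.78, SE 0.40, adjusted p = 5.65e-04), and Mylk2 was 6.13-fold lower (-2.62, SE 0.54, adjusted p = 0.0177). Of the 11 member probe sets 6 passed, 5 higher and 1 lower in WT soleus, where 7.7% of all probe sets passed (limma). The 3 probe sets of Myl3 are among the 6. With only the brightest probe set of each gene fitted, 4 genes passed.

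The fast chains differed little between the WT muscles. Mylpf differed by -0.30 (SE 0.10, limma adjusted p = 0.105), and with array number as a block it fell in WT soleus (adjusted p = 0.0259), which made 7 members against 14.6% of all. Myl1 differed by -0.20 (SE 0.08, adjusted p = 0.158). Both lay near the top of the table in both muscles. Of the 10 fast genes outside the members, 5 passed as lower in WT soleus and 0 as higher, where 7.7% of all probe sets passed (limma). Of those that did not pass, all but Myh1 (0.07) also had lower means in WT soleus. Myl4 differed by 1.83 (SE 1.07, adjusted p = 0.325).

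In KO mice the same 6 member probe sets passed, in the same directions, where 6.6% of all probe sets passed. Myl2 was 58.1-fold higher in KO soleus than in KO TA (log2 difference 5.86, limma adjusted p = 0.00174), and the Myl3 probe sets were 43.1-, 47.9- and 45.4-fold higher. Smtnl1 was 3.93-fold higher (1.97, SE 0.40, adjusted p = 0.0180), against the 13.8-fold in WT mice, and Mylk2 was 5.52-fold lower (-2.46, adjusted p = 0.0255). The difference between these contrasts in KO and in WT is the same quantity as the difference of KO effects above. Soleus and TA did not overlap in 7 of 11 members in KO, against 27.7% of all probe sets, and in 10 of 11 in WT, against 33% of all. The 10 in WT include the dim Myl4 probe set 1457126_at, and the other 9 are the probe sets above background.

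The Mylk2 call in KO was lost in 4 of 24 alternatives, without KO soleus replicate 1 (limma adjusted p = 0.0943) or 2 (0.0763) and without KO TA replicate 1 (0.0733) or 3 (0.0801). In WT it was lost in 2, without WT soleus replicate 1 (0.0578) and on the WT arrays alone (0.0917). The Smtnl1 call in KO was lost in 4, without KO soleus replicate 1 (0.0581), without KO TA replicate 1 (0.0526) or 2 (0.0671), and on the KO arrays alone (0.0690). In WT it held in all 24. The median log2 difference of the 11 members was 1.74 in KO against -0.02 for all probe sets, and 1.83 in WT against -0.02, in both genotypes the value of Myl4 on 1422580_at, which did not pass.

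**Figure D4:**
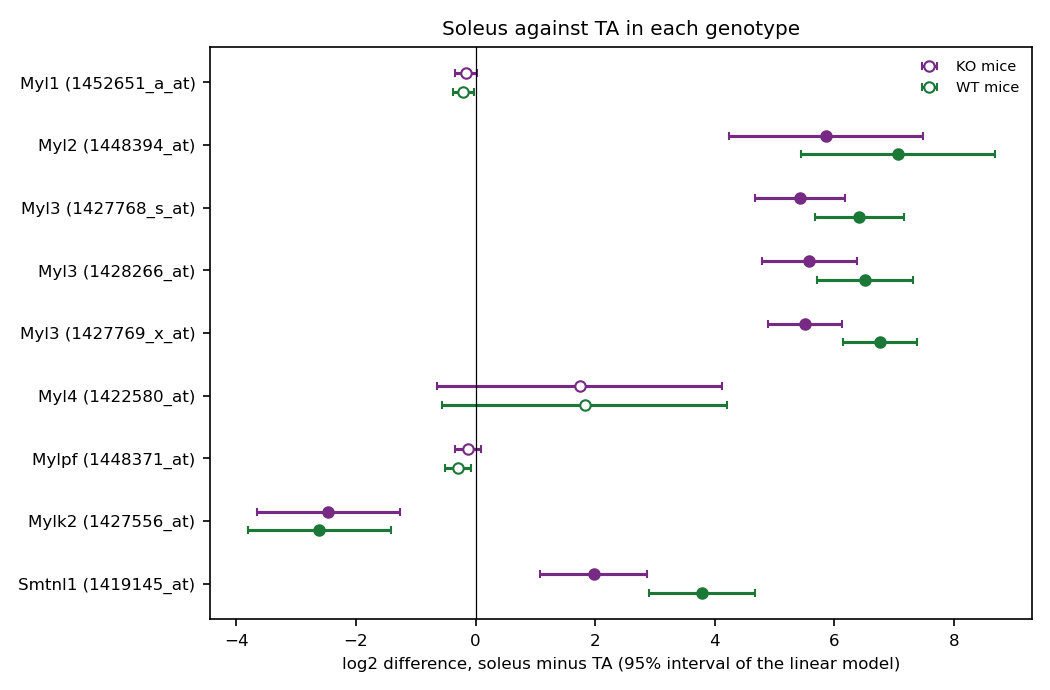
Log2 difference soleus minus TA (x axis) of the 9 member probe sets above background in KO mice (purple) and WT mice (green), with the 95% interval of the linear model and a filled point where the adjusted p is under 0.05. Myl2 and Myl3 lie between 5.43 and 7.06, Mylk2 lies at -2.46 and -2.62 and the fast chains lie close to 0, while Smtnl1 is at 1.97 in KO and 3.78 in WT.

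Other genes of the pathway were read on the brightest probe set of each gene, in 7 lists, and a dimmer probe set is named as such where given. In KO against WT soleus 0 genes passed in any list (limma). In KO TA, Myl12a, a regulatory chain of non-muscle myosin, rose by 0.68 (SE 0.09, limma adjusted p = 0.0115), the 1 of 5 light chains of other tissues that passed. Its other, dimmer probe set differed by 0.13 (adjusted p = 0.874), and without KO TA replicate 2 the adjusted p of the brighter was 0.0517. The call on the brighter held in 21 of 24 alternatives, with adjusted p (limma) up to 0.0847. The list's median was -0.27.

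Of 7 genes of the myosin phosphatase and its inhibitors, Ppp1r14b, an inhibitor of the phosphatase, fell by 1.003 on the log2 scale in KO TA (SE 0.19, limma adjusted p = 0.0321). Its mean was 10.50 in KO TA against 11.50 in WT TA. The Ppp1r14b call in TA held in 14 of 24 alternatives, with adjusted p (limma) up to 0.178. The adjusted p was 0.0979 without KO TA replicate 2, 0.108 without KO TA replicate 3, 0.106 without WT TA replicate 1 and 0.0853 without WT TA replicate 2. Its relative Ppp1r14c differed by -0.81 (adjusted p = 0.141, and 0.0410 with array number as a block). The list's median was -0.11.

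Of 6 heavy chains of skeletal fibres, Myh2, the heavy chain of type IIa fibres, rose by 1.64 (SE 0.25, limma adjusted p = 0.0149), to 14.50 in KO TA against 12.85 in WT TA. Like Smtnl1, it was higher in soleus than in TA of both genotypes, by 1.31 in KO and 2.94 in WT. The list's median in KO TA was 0.77. Leaving out single TA arrays moved the difference of Myh2 between 1.39 and 1.999, and its adjusted p was 0.0639 without KO TA replicate 2 and 0.0513 without WT TA replicate 1. The Myh2 call in TA held in 21 of 24 alternatives, with adjusted p (limma) up to 0.126.

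None passed among the other kinases, the smoothelin family with protein kinase A, and the myosin binding proteins in KO TA (0 of 5, 0 of 6 and 0 of 4, limma). The smallest p among the kinases belonged to Rock1 on a dimmer probe set (0.43, limma adjusted p = 0.179) and Dapk3 (0.69, adjusted p = 0.183). Both act on the regulatory chain or its phosphatase. On its brightest probe set Rock1 differed by 0.32 (limma adjusted p = 0.524), and KO and WT TA overlapped. In the smoothelin and kinase list the smallest p belonged to the protein kinase A subunits Prkar2a and Prkar1a. Prkar2a on a dimmer probe set differed by -0.58 (limma adjusted p = 0.135, and 0.0356 with array number as a block) and Prkar1a by 0.52 (adjusted p = 0.176). Mybpc2 and Mybpc1, the fast and slow myosin binding proteins, differed by -0.66 and -0.19 (adjusted p = 0.530 and 0.564). The medians of these 3 lists were 0.05, 0.07 and -0.42, against -0.0043 for all probe sets tested. Calmodulin had 0 probe sets with a single calmodulin symbol and was not analysed here. The smooth muscle markers, which could bear on the smoothelin list and share Smtn and Myl9 with these lists, had a summed log2 signal of 14.44 to 14.67 in KO TA against 14.43 to 14.75 in WT TA. Of these 9 markers 8 had lower means in KO TA and 1 passed, Lmod1 (-0.88, limma adjusted p = 0.0295), whose means of 2.40 in KO TA and 3.27 in WT TA are near background.

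**Figure D5:**
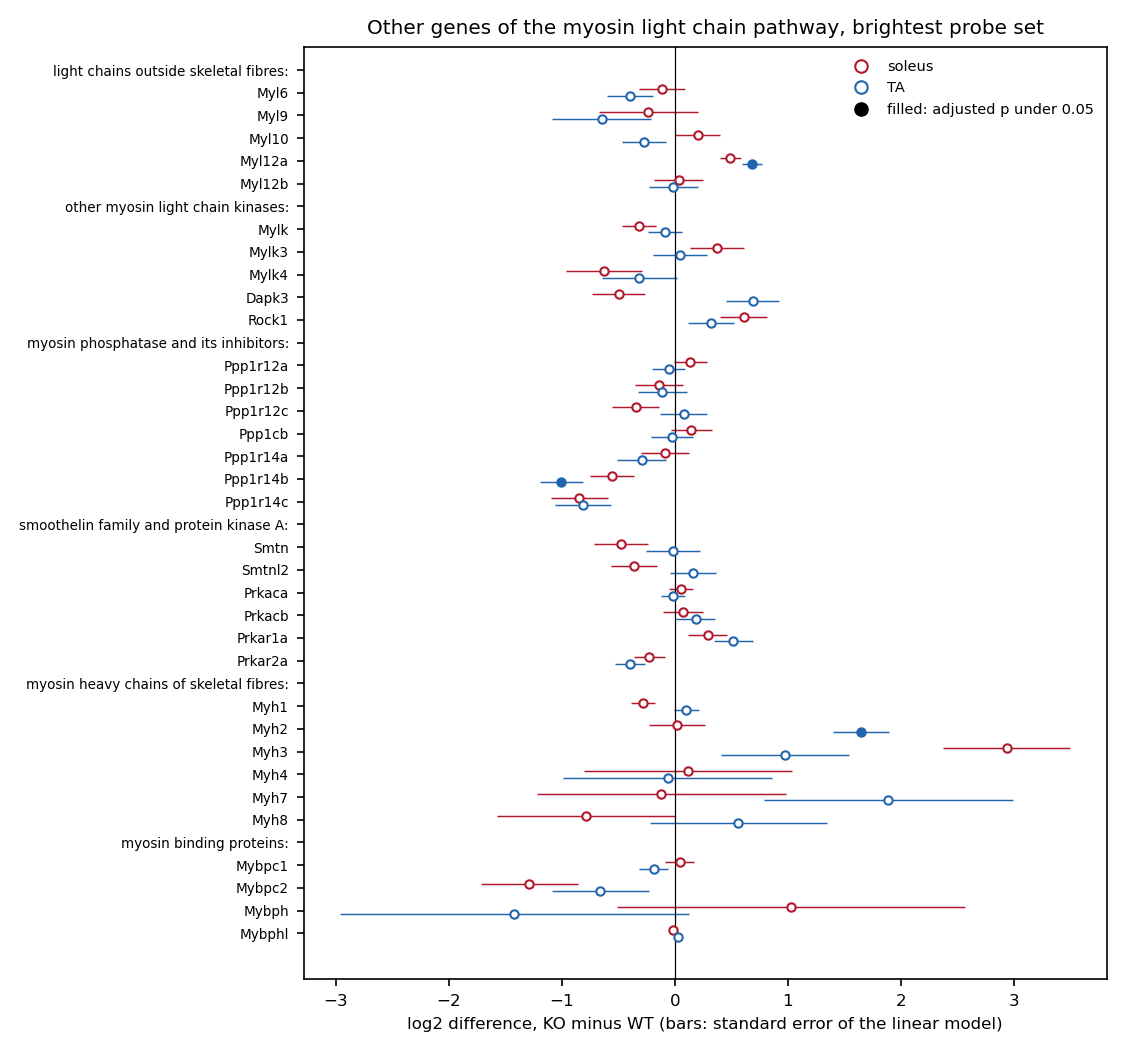
Log2 difference KO minus WT (x axis) of the other pathway genes, each on its brightest probe set, in soleus (red) and TA (blue), with bars for the standard error of the linear model and a filled point where the adjusted p is under 0.05. The filled points, all in TA, are Myl12a at 0.68, Ppp1r14b at -1.003 and Myh2 at 1.64.

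Between the muscles, the pathway lists held genes that passed in both directions (limma). Among the kinases Mylk4, a relative of Mylk2, was lower in soleus by a log2 difference of -3.76 in KO and -3.45 in WT, the same direction as Mylk2, and Dapk3 was lower in KO soleus (-1.64). The phosphatase subunits Ppp1r12b (1.31 in KO and 1.34 in WT) and Ppp1r12a (1.19 and 1.004) were higher in soleus. Ppp1r14b was lower (-0.74 and -1.19). Smtnl2, the closest named relative of Smtnl1 in the lists, was lower in soleus, with log2 differences of -1.80 in KO and -1.27 in WT, opposite in direction to Smtnl1. The protein kinase A subunit Prkar2a was lower in WT soleus (-0.63).

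Among the light chains of other tissues, Myl10 (2.41 in KO and 1.93 in WT) and Myl12a (0.80 and 0.99) were higher in soleus, and Myl6 was lower in WT soleus (-0.84). Of the heavy chains, Myh7 was higher by 7.45 in KO and 9.46 in WT (7.79 without WT TA replicate 3, where it was near background), Myh3 by 4.14 and 2.18, and Myh4, the type IIb chain, was lower (-4.27 and -4.45), while Myh2 is given above. Mybpc2 was lower in soleus (-3.99 in KO and -3.37 in WT) and Mybpc1 was higher (0.83 and 0.60).

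The genes whose pattern was most like each member were taken by Pearson's r over the 12 arrays, among probe sets with a mean log2 above 5. Because soleus and TA form separate clusters for most members, r within each muscle (6 arrays) is given as well, all as description. For Smtnl1 these were Igdcc4 (r = 0.98 over the 12 arrays, 0.99 within TA and 0.84 within soleus), Ptgr2 (0.98, 0.93 and 0.27) and Acss2 (0.97, 0.96 and 0.86). For Mylk2 they were Carm1 (0.99, 0.93 and 0.99), Camk2g (0.98, 0.91 and 0.98) and Anapc5 (0.98, 0.95 and 0.94). For these 2 members r was thus also high within both muscles, apart from Ptgr2 in soleus. These genes were picked from 13715 candidate probe sets on the same arrays, so this is no independent check.

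For Myl2 the most alike were Tnnt1 (0.997 over the 12 arrays, 0.98 within TA and 0.94 within soleus), Myh7 (0.99, 0.92 and -0.02) and Csrp3 (0.99, 0.91 and 0.47). For Myl3 they were Myoz2 (0.99, 0.91 and -0.20), Pdlim1 (0.99, 0.71 and 0.53) and Tpm3 (0.99, 0.50 and 0.55), so r within a muscle was lower than over both. For Myl4 they were Ifitm2 (0.95 over the 12 arrays, 0.97 within TA and 0.23 within soleus), Mprip (0.94, 0.96 and 0.96) and Supt16 (0.93, 0.96 and 0.71). Mprip binds the myosin phosphatase. The arrays numbered 3 are shared by all of these correlations.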

How the data were processed

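RNA of 12 muscles was measured on one-colour arrays. Trizol RNA was labelled as biotinylated cRNA, per the labels. The deposited values are log2 signals for 45101 probe sets. The submitters' processing notes name MAS5, with the step it served not given in the sources used here. Per the deposited table the log2 values run from 0.89 to 16.36.

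Trimmed means (2%) of the linear signal were up to 1.11 times apart between arrays, so the arrays were quantile normalized. By the probe annotation, 34945 probe sets had 1 symbol, 932 had several, 9160 had none and 64 were controls. Probe sets above the 40th percentile (log2 2.76) on at least 3 arrays with 1 symbol were tested, 22648 in number, for 13009 genes. Of these, 6937 had a mean under log2 4, here called near background. The model was lmFit on 4 group means over all 12 arrays with eBayes and a variance trend (limma 3.58.1, R 4.3.3), 2-sided, with Benjamini-Hochberg adjustment over all probe sets tested and a threshold of 0.05. An exact permutation test of 3 against 3 cannot go below p = 0.1. The steps were tested on simulated data with independent noise on each array and no effect of array number. That test cannot speak to calls that depend on array number.

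Members and lists were chosen with earlier results of these data known. Of each pathway list, genes past the test in KO against WT are named, or the 2 of smallest p in TA where none passed. Between muscles up to 4 are named per list, those with the largest differences past the test. For likeness 3 genes are given for each of Smtnl1, Mylk2, Myl2, Myl3 and Myl4. Those of Myl1, Mylpf and Myl6b are left out.

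The main model did not pair the arrays. Equal array numbers were paired only in the fits with array number as a block and in the differences by array number. This was done because deviations of equal numbers from the group means correlated above 0.1 in every pair of groups (0.10 to 0.67, the lowest 0.100307). Unequal numbers gave -0.60 to 0.45, so the ranges over all pairs of groups overlap. Between KO soleus and KO TA they did not, at 0.45 to 0.66 for equal and -0.54 to 0.15 for unequal numbers. Between KO TA and WT TA they were just apart, at 0.32 to 0.63 and -0.49 to 0.31. Between WT soleus and WT TA they overlapped, at 0.16 to 0.61 and -0.57 to 0.42. KO soleus array 2 gave 0.45 with WT soleus array 1 and 0.10 with WT soleus array 2. The labels give no such pairing, and KO and WT arrays of equal number are from different mice. Whether soleus and TA arrays of equal number and genotype are from the same mouse is not given, and the main model treats them as separate. Results with array number as a block are given for the members whose call they change, and for the pathway genes only in part. Mylk, among the other kinases, was higher in WT soleus than in WT TA by 0.46. Its limma adjusted p was 0.0962, and 0.0206 with the block. Alternatives covered scaling, filter, probe set choice, floor, variance model, array weights, block, the arrays fitted and leaving out each array.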

Additional observations from a re-analysis of the deposited data

How the results depend on the processing

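Single-gene differences were recomputed under each alternative, 1829 values in all. Of these 1683 kept their direction and their side of the threshold, 96 kept the direction and lost the call, 9 gained it and 41 changed sign. The cause of these changes was not tested.

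Counts of probe sets called in KO against WT soleus (5) were 3 with no filter and with robust variances, 1 with a mean log2 above 5 and without a variance trend, 176 with array weights, 2 without the arrays numbered 3 and 0 on the soleus arrays alone, and 2 to 18 without single arrays. In KO against WT TA (458) they were 1231 with the replicate block, 48 without the arrays numbered 3 and 3 on the TA arrays alone, and 78 to 533 without single arrays. The members called there (1) were 2 with the table as deposited, median centring, a mean log2 above 5, a floor at log2 4, array weights or the replicate block, and 0 with no filter, without the arrays numbered 3 or on the TA arrays alone, and 0 to 2 without single arrays. For the difference of KO effects (8) they were 2 as deposited, 5 with median centring, the brightest probe set or a floor, 4 with no filter, 0 with a mean log2 above 5, 1 without a trend and 1 with the replicate block, and 1 to 23 without single arrays. For soleus against TA in WT (1745) they were 3948 with array weights, 3296 with the replicate block, 748 on those arrays alone and 891 to 1718 without single arrays. In KO (1494) they were 2989, 673 and 728 to 1459 with the block, on those arrays alone and without single arrays. Among the members the replicate block changed the calls of Myl3 on 1427769_x_at in TA and of Mylpf between the WT muscles, and no other.

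Signs turned for members whose differences had not passed. In soleus, Myl1 was -0.030 as deposited, -0.050 with median centring and -0.0032 with array weights, and -0.020 to 0.073 without single arrays. Mylpf was -0.054, -0.074 and -0.025 under those settings, and -0.071 to 0.11 without single arrays. For Myl3, 1428266_at was -0.014 as deposited, -0.035 with median centring and -0.061 to 0.10 without single arrays, 1427768_s_at was -0.12 to 0.066 and 1427769_x_at -0.066 to 0.023. Myl4 was -0.36 to 0.19 and Mylk2 -0.85 to 0.064 without single arrays. In TA, Myl4 was 0.019 as deposited, 0.064 with median centring, 0.00030 with array weights and -1.28 to 1.27 without single arrays, and Myl1 was -0.046 to 0.069. In the difference of effects Myl1 was -0.046 with median centring and -0.037 to 0.081 without single arrays. Myl4 was 0.81 without the arrays numbered 3 and -1.43 to 1.12 without single arrays. Mylk2 was -0.30 with array weights and -0.36 to 0.56 without single arrays.

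Of the pathway genes, the muscle calls of Myl6 in WT (14 of 24 alternatives), Ppp1r14b in KO (12 of 24) and Myh3 in WT (12 of 24) held least often. Myl6b and the dim Myl4 probe set lay near background, where no difference can be read, and Myl1 and Mylpf in both muscles, with Myl2 and Myl3 on 1427768_s_at in soleus, lay near the ceiling of the table, where differences can be understated.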
